A study of Mus musculus with 18 samples.

Results

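Keratins are the proteins from which epithelial cells build their intermediate filaments. The 44 genes described here are all genes that the array files name Krt followed by digits, of 19732 named genes, leaving out the keratin-associated proteins (Krtap) and keratinocyte differentiation-associated protein (Krtdap). In all 52 probes read them, and where a gene has several the brightest on average stands for it. Of the 44, 24 lie on chromosome 11, which holds the type I cluster, and 19 on chromosome 15, which holds the type II cluster and Krt18, while Krt85 found no match in the RefSeq table. By textbook role they comprise 6 keratins of simple epithelia, 20 of stratified epithelia, 5 of the inner root sheath of the hair follicle, 12 of hair and nail, and the keratin-like Krt222. Krt12 and Krt86 carry a keratin name only in the organoid files, and Krt42 only in the files of the fibroblasts and hepatocyte-like cells. The probe named Krt83 matches the gene now called Krt87.

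The study set progenitors induced from mouse fibroblasts beside native intestinal ones, with 18 one-colour Agilent arrays of total RNA from C57BL/6 mouse cells in 6 groups of 3. MEF are embryonic fibroblasts, and iHep are hepatocyte-like cells induced from MEFs. iISC are budding organoids whose source cells were induced intestinal stem cells, and crypt are budding organoids started from adult intestinal crypts. iFIPC are cultures of spherical together with budding organoids whose source was induced progenitors of the fetal intestinal type, and FI are the same kinds of organoid started from native fetal intestinal progenitors. All groups share the strain, and the labels used here name no age, promoter, transgene or factor. The iHep titles carry codes (4α1, 4α2, 4α3) that the labels do not explain, and the coded samples were taken as 3 replicates. The labels mark the MEF and iHep arrays as re-analysed from an earlier deposit. Nothing in the labels says that the replicates came from separate animals or cultures, so p-values measure only the spread between these samples, which may be technical.

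A level below is the log2 signal minus the 75th percentile of that array, and it can be compared between samples but not between genes. MEF 2 and MEF 3 differed by less than the noise of single spots and were counted as 1 sample, which gives 17 samples and n = 2 for MEF. Between 56.2% and 68.7% of the gene probes of an array were well above background, the scanner software's call that a spot is brighter than its surround. The MEF and iHep arrays were read with another scanner model and software version than the organoid arrays, so that array set and cell type cannot be told apart in any comparison between them, and 10 spike-in probes read 0.32 to 1.20 log2 units brighter in the MEF and iHep set. iFIPC 3 stood apart for many stratified keratins, and values without it are given where it ended a call or moved the difference of a called keratin by over 1.5 times. Of 16 intestinal marker genes all were above background on every organoid array, 10 on every iHep array, and 5 on every MEF array. Their summed linear signal, in units of the 75th percentile, was 388, 266 and 863 on iHep 1, 2 and 3. It was 660 to 1227 over the organoid arrays and 11.7 to 13.7 in MEF. Of 9 hepatocyte markers 8 were above background on every iHep array, and so were all 12 fibroblast markers.

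A keratin filament is built from pairs of a type I and a type II chain. Simple epithelia such as gut and liver use Krt8 with Krt18 and add Krt19, Krt20, Krt7 or Krt23 by tissue, while stratified epithelia use Krt5 with Krt14 or Krt15 in basal cells and Krt4 with Krt13 above them in moist linings such as the oesophagus. Krt6a, Krt6b, Krt16 and Krt17 are low in resting skin between the follicles and rise in wounded or fast-growing stratified epithelium. The filaments are anchored at desmosomes and hemidesmosomes, and fibroblasts use vimentin in place of keratins.

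RefSeq promoter sequences (build GRCm38.p6) matched 29 of the 44 keratins. The 250 bases before the start of 5 of them are shown because the results turn on these genes: the filament pair Krt8 and Krt18, the gut keratins Krt20 and Krt23, and the basal keratin Krt5. Capitals mark matches to ATAAA on the sense strand with its first base 35 to 20 bases before the start (the core of a TATA element) and, on both strands, to the E-box CACCTG that Snai and Zeb repressors bind and the Cdx motif TTTATNG. The AP-1 motif TGANTCA and the Grhl motif AACCNGTT were also searched on both strands.
Krt8, chr15:102004343-102004592, minus strand: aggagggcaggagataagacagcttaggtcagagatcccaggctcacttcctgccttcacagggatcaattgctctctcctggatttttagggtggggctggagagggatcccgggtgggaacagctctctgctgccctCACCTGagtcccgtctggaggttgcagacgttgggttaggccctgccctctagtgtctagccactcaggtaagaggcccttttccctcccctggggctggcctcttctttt
Krt18, chr15:102027966-102028215, plus strand: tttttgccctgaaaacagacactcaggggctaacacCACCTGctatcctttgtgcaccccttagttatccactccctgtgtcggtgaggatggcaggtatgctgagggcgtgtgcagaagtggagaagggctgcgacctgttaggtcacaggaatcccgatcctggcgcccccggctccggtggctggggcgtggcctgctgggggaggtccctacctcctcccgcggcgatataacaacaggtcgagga
Krt20, chr11:99438154-99438403, minus strand: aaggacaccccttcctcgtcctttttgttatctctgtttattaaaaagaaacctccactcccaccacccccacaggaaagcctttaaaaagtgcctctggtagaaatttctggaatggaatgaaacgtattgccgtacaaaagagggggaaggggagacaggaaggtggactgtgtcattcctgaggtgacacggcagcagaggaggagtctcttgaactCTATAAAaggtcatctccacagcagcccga
Krt23, chr11:99493121-99493370, minus strand: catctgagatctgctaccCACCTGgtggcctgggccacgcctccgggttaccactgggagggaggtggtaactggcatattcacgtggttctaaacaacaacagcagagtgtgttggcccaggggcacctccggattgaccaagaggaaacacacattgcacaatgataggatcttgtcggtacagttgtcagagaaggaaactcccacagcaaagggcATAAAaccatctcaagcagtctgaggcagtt
Krt5, chr15:101712906-101713155, minus strand: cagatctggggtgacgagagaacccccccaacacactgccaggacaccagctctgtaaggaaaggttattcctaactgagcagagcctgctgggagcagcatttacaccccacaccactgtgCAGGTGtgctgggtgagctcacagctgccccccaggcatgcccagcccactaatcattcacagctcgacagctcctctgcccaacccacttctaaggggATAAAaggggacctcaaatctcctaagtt

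The windows differed among these keratins. Krt20, Krt23 and Krt5 had the ATAAA element, and the Krt8 and Krt18 windows did not. Other forms of the TATA element were not searched, and the Krt18 window holds the stretch atataa near its end. Among the 29 keratin promoters 17 had the ATAAA element, against 3.76% of all 32851 promoters in the table. The E-box stood in the windows of Krt8, Krt18, Krt23 and Krt5 and in 9 of the 29 in all, against 17.2% of all promoters. The Cdx motif stood in 10 of 29, against 9.81%. On the other strand it reads CNATAAA, which holds ATAAA, and all of these 10 but Krt9 also had the ATAAA element. The Cdx count is thus not separate from the ATAAA count. In Krt20 the Cdx motif overlapped the ATAAA element, so that 1 stretch of capitals marks both. The AP-1 motif was found in 1 keratin promoter (Krt13), against 6.75% of all, and the Grhl motif in none of the 29, against 1.79%. Krt8 and Krt18 are transcribed away from each other, with 23873 bases and 2 annotated genes between them.

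Of the 44 keratins, 35 were well above background on all arrays of 1 group or more, 3 (Krt9, Krt34 and Krt42) on some arrays but on all 3 of no group, and 6 (Krt25, Krt26, Krt27, Krt71, Krt76 and Krt82) on no array. Of the 6 simple keratins, all were above background on every array of 5 groups, and MEF lacked only Krt23. By group, 17 keratins were above background on all 3 MEF arrays, 23 on all iHep arrays, 22 in iISC, 25 in crypt, 29 in iFIPC and 26 in FI. For stratified keratins these numbers were 9 in MEF, 14 in iHep, 8 in iISC, 11 in crypt, 15 in iFIPC and 13 in FI, so that iFIPC had the most and iISC the fewest. All these group counts include Krt1, whose probes lie on opposite strands and for which no level is claimed below.

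**Figure D1:**
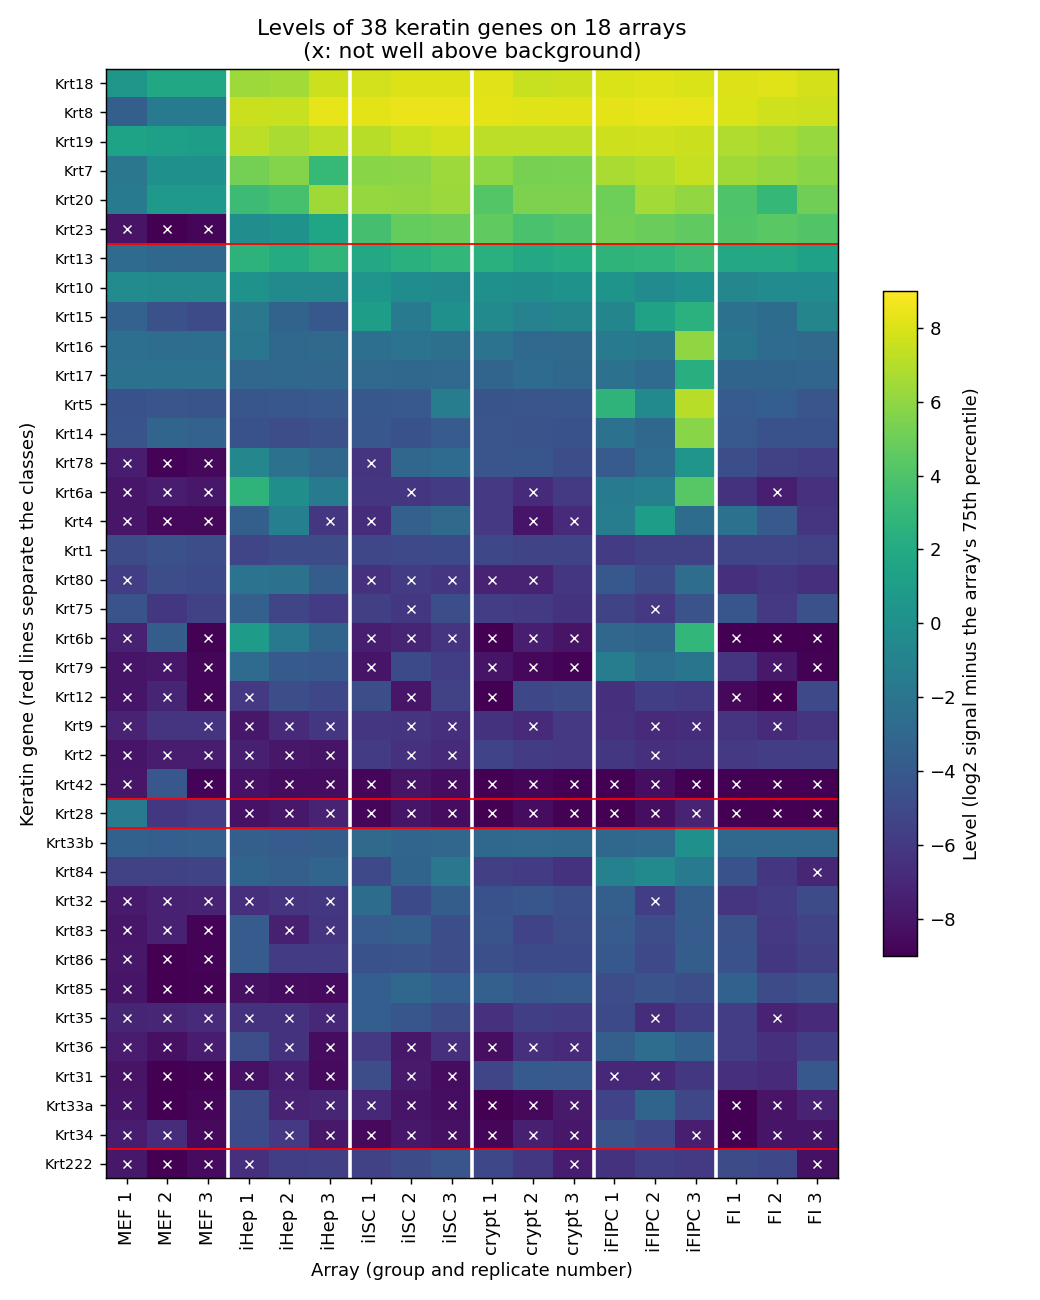
Levels (log2 signal minus the 75th percentile of the array, colour) of the 38 keratins above background on at least 1 of 18 arrays, 1 column per array and 1 row per gene, with an x where the probe was not well above background; colours compare arrays within a row, not genes. Krt8 and Krt18 are lowest on the 3 MEF arrays, and Krt5, Krt14, Krt16, Krt17 and Krt6a are highest on iFIPC 3.

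Krt8, the type II chain of simple epithelia, had levels of −3.54, −1.56 and −1.50 on the MEF arrays. It read 7.55, 7.48 and 8.31 in iHep, 8.28, 8.49 and 8.50 in iISC and 8.28, 8.14 and 8.16 in crypt. It read 8.28, 8.43 and 8.34 in iFIPC and 7.95, 7.67 and 7.64 in FI. Every MEF array thus lay far below every other array, and the other 15 arrays lay within about 1 log2 unit of each other.
Its partner Krt18 read 0.51, 1.75 and 1.76 in MEF and 6.40, 6.48 and 7.66 in iHep. In organoids it read 7.79, 8.08 and 8.08 (iISC), 8.16, 7.48 and 7.62 (crypt), 7.95, 8.12 and 7.97 (iFIPC) and 8.03, 8.12 and 7.84 (FI). The organoid groups overlapped for Krt18, and iHep 1 and iHep 2 lay below all of them.
Krt19, the short type I keratin of ducts and crypts, read 1.45, 1.19 and 1.11 in MEF and 7.18, 6.69 and 7.21 in iHep. It read 7.05, 7.46 and 7.79 in iISC, 7.20, 7.21 and 7.23 in crypt, 7.66, 7.69 and 7.59 in iFIPC and 6.86, 6.61 and 6.24 in FI. FI lay below the other organoid groups without overlap.

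Krt20, a keratin of mature gut surface cells, read −1.56, 0.75 and 0.69 in MEF and 3.33, 3.75 and 6.45 in iHep, with iHep 3 the highest of them by far. In organoids it read 6.14, 6.07 and 6.32 in iISC, 4.16, 5.46 and 5.48 in crypt, 5.02, 6.49 and 6.07 in iFIPC and 4.03, 2.99 and 5.09 in FI. The 3 iISC arrays lay above all crypt and all FI arrays, and the iHep arrays lay within the range that the 12 organoid arrays spanned.
Krt7, a type II keratin of ducts and other glandular linings, read −1.86, 0.03 and 0.02 in MEF and 5.21, 5.63 and 3.09 in iHep. It read 5.80, 5.90 and 6.36 in iISC, 5.94, 5.28 and 5.41 in crypt, 6.75, 6.96 and 7.40 in iFIPC and 6.41, 6.17 and 5.83 in FI. iFIPC was the highest group, with no overlap with any other.
Krt23, a type I keratin of simple epithelia, was not above background on any MEF array and read −0.19, 0.26 and 1.64 in iHep. It read 3.72, 4.71 and 4.97 in iISC, 4.59, 3.86 and 4.13 in crypt, 5.20, 4.93 and 4.64 in iFIPC and 4.12, 4.40 and 4.10 in FI. All 12 organoid arrays lay above all iHep arrays.

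**Figure D2:**
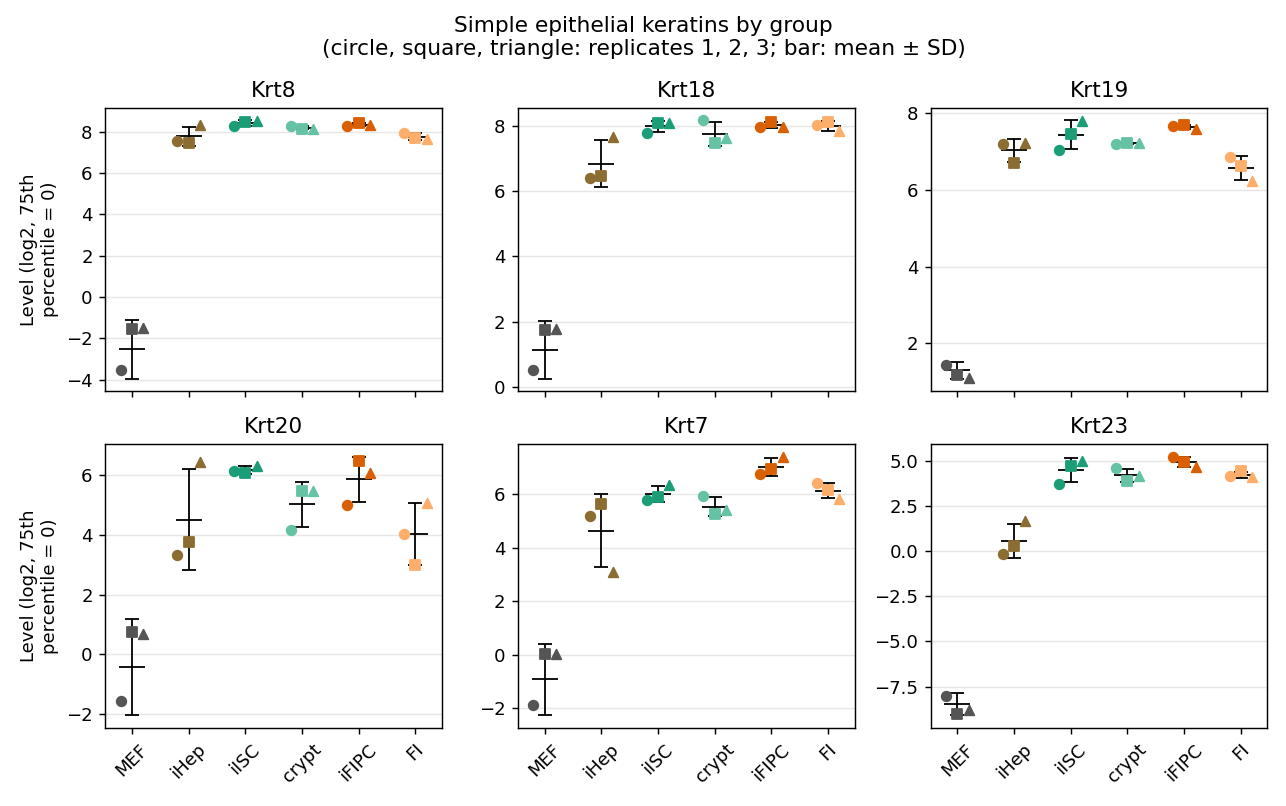
Levels of the 6 simple keratins (vertical axis, log2 with the 75th percentile of the array at 0) in the 6 groups, each array as a point whose shape is its replicate number, with the group mean ± SD as a bar (MEF 2 and 3 averaged first). MEF lies lowest in all 6 panels, Krt23 is intermediate in iHep, and FI is the lowest organoid group for Krt19.

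Simple keratins were higher in iHep than in the fibroblasts they came from. All 6 were called higher, and the largest differences were in Krt8 (10.31 ± 0.41, mean ± SE, about 1273-fold, limma adjusted p = 8.61e-10) and Krt23 (at least 114-fold, adjusted p = 1.50e-08). Krt19, Krt18, Krt7 and Krt20 were higher by 5.73, 5.71, 5.56 and 4.93 log2 units. A call here means a Benjamini-Hochberg adjusted p under 0.05 over all genes tested by limma and a difference of at least 1 log2 unit. An "at least" fold is given where no array of the dimmer group was above background, and sets the brighter group's mean against the lowest signal counted as above background on the dimmer group's arrays, or the probe's own signal where that is higher. MEF 1 is the only MEF sample on the slide that holds the iHep arrays, and with slide as a term, which rests on that 1 sample, 14 of the 15 calls of this comparison were kept. In RNA from whole cultures, fewer cells of a type and less RNA per cell cannot be told apart.
Of 24 keratins tested, 15 were called, 14 higher and 1 lower, where 27.8% of all 14417 genes tested were called (11.9% higher and 15.9% lower). Of the 24, 7 passed the filter through iHep alone and 1 through MEF alone, and all 8 were called, each in the only direction open to it. The other keratins that rose are known from stratified epithelia or hair: Krt6a (at least 97.2-fold), Krt78 (at least 19.3-fold), Krt79 (at least 6.55-fold), Krt86 (at least 2.16-fold), Krt6b (5.48 ± 1.53), Krt13 (5.34 ± 0.32, from 1 of its 2 probes, the other being above background on the 3 iFIPC arrays only), Krt80 (2.56 ± 0.62) and Krt84 (2.16 ± 0.81, adjusted p = 0.0438). With normexp background correction Krt6b, Krt84 and Krt86 were not called. Krt84 also lost its call with any 1 of the MEF or iHep samples left out (2.08 without iHep 3 to 2.29 without iHep 2), and Krt6b (4.94, adjusted p = 0.0777) and Krt80 (2.15, adjusted p = 0.0554) lost theirs without MEF 1. The basal keratins Krt5 and Krt14 differed by 0.29 ± 1.46 and −0.82 ± 1.77 and were not called. Each SE uses the spread over all 6 groups, iFIPC among them. The SDs within iHep and MEF were 0.10 and 0.15 for Krt5 and 0.13 and 0.77 for Krt14.

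Krt6a in iHep differed widely between arrays, at 2.68, −0.03 and −1.61, and Krt6b read 0.91, −1.73 and −3.22. Both were highest in iHep 1 and lowest in iHep 3, the array with the most Krt18 and Krt20. On the MEF arrays Krt6a was not above background, and Krt6b only on MEF 2 (−3.71), although MEF 3, at −8.87, is otherwise nearly the same sample. Krt42 likewise was above background only on MEF 2. Krt6a and Krt6b are near-identical copies, and signal shared between their probes was not tested.
Krt28, a keratin of the inner root sheath, was the only keratin lower in iHep and was above background only in MEF, at −1.49, −6.09 and −5.70. MEF was at least 5.13-fold above iHep (adjusted p = 0.0025), and MEF 1 lay far above the other MEF arrays. Fitted on iHep and MEF samples alone the call was lost (adjusted p = 0.075).

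The iFIPC and iISC organoids had the same 6 simple keratins called higher than MEF. Against these shared MEF samples, iFIPC had 23 of 31 tested keratins called (22 higher, 1 lower), where 43.5% of all genes were called (20.2% higher and 23.3% lower), and iISC had 16 of 24 (15 higher, 1 lower), where 48.5% were (23.1% higher and 25.5% lower). With normexp background correction the iISC count was 10, where 6047 of 14801 genes were called. Of the 31 tested in iFIPC, 14 passed the filter through iFIPC alone, and 12 of these were called. Of the 24 tested in iISC, 7 passed through iISC alone, and all 7 were called. In each comparison 2 passed through MEF alone, and 1 of these was called. All of these calls lay in the direction that the filter favours. Krt8 was higher by 10.89 ± 0.42 in iFIPC and 10.96 ± 0.41 in iISC, and Krt23 by at least 2319-fold and at least 1692-fold. In the same order Krt18 was higher by 6.88 and 6.85, Krt19 by 6.35 and 6.14, Krt7 by 7.95 and 6.94, and Krt20 by 6.28 and 6.60. Krt13, a type I keratin of moist stratified linings, was higher by 5.80 and 5.24 on the same probe, and Krt15, a type I keratin of basal cells, by 5.04 and 3.85.
Krt5 was called against MEF in iFIPC (7.52 ± 1.47, adjusted p = 0.000599, and 5.55 without iFIPC 3), and its difference in iISC was 1.23 ± 1.47 (adjusted p = 0.469). Krt14 was called in neither, at 3.95 ± 1.78 (adjusted p = 0.0667) in iFIPC and −0.39 ± 1.77 in iISC, but was called in iFIPC with quantile scaling (4.25) and without iFIPC 3 (1.15). iFIPC also had calls for Krt4 (at least 39.4-fold), Krt6a (at least 106-fold), Krt6b (5.72, and 3.70 without iFIPC 3), Krt78 (at least 18.6-fold), Krt79 (at least 19.7-fold), Krt36 (at least 8.47-fold), Krt33a (at least 3.19-fold) and Krt33b (1.54). Krt28 was lower by at least 7.3-fold in iFIPC and at least 5.39-fold in iISC. The calls against MEF for Krt33b in iFIPC (1.61 and 1.47) and Krt84 in iISC (2.02 and 2.18) were lost without MEF 1 and without MEF 2 and 3. Krt33b was at 0.56 and not called without iFIPC 3, and Krt84 in iISC was at 2.03 without iISC 2 and 1.31 without iISC 3.

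Several hair and nail keratins were above background in organoids and not in MEF. Krt85, a type II keratin of the hair shaft, was at background on all 6 MEF and iHep arrays and lay at −4.85 to −2.91 over the 12 organoid arrays, at least 3.17-fold above MEF in iFIPC and at least 7.31-fold in iISC. In the same order Krt83 was higher by at least 4.36-fold and 4.75-fold, Krt86 by at least 4.05-fold and 3.29-fold, and the keratin-like Krt222 by at least 1.2-fold and 2.62-fold. Krt84 was higher than in MEF by 4.39 and 2.10. Krt32 (at least 5.61-fold) and Krt35 (at least 4.1-fold) were called in iISC. Normexp correction ended the calls for Krt83, Krt86 and Krt222 in both comparisons, for Krt6b, Krt33a, Krt33b and Krt85 in iFIPC, and for Krt32, Krt35 and Krt84 in iISC, and it turned Krt222 in iFIPC to −0.10. Krt222 in iFIPC also lost its call without MEF 1 (2.75), MEF 2 and 3 (1.88), iFIPC 2 (2.16) or iFIPC 3 (2.28).

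Between iFIPC organoids and iHep, 10 of 30 tested keratins were called, all higher in iFIPC, where 34.1% of all genes were called, 17.5% higher and 16.6% lower. Of the 30, 7 passed the filter through iFIPC alone, of which 2 were called, and 1 through iHep alone, which was not called. Among simple keratins Krt23 was higher by 4.35 ± 0.43 (adjusted p = 3.07e-06), Krt7 by 2.39 ± 0.57 and Krt18 by 1.17 ± 0.34. Krt8 differed by 0.57 ± 0.37 (adjusted p = 0.199), Krt20 by 1.35 ± 0.82 (adjusted p = 0.172) and Krt19 by 0.62 ± 0.20, which is under the fold minimum. Krt18 fell under that minimum with quantile scaling (0.91) and without iHep 1 (0.94) or iHep 2 (0.98).
Of stratified keratins Krt5 (7.23 ± 1.31), Krt14 (4.77 ± 1.59) and Krt15 (4.08 ± 0.86) were called. Without iFIPC 3 the difference in Krt14 was 1.97 ± 0.30 (adjusted p = 0.000227) and that in Krt5 5.26, and fitted on iFIPC and iHep alone Krt14 was not called (adjusted p = 0.14). Krt6a and Krt6b differed by 0.13 ± 1.31 and 0.25 ± 1.37. The hair and nail keratins called were Krt85 (at least 2.75-fold), Krt36 (3.34 ± 0.78, above background on 1 iHep array), Krt84 (2.23 ± 0.72) and Krt33b (1.74 ± 0.56), and without iFIPC 3 Krt33b was at 0.76 and not called. Normexp correction ended the calls for Krt36 and Krt85, and Krt84 lost its call without iFIPC 2 (1.93) or iHep 2 (2.11).

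No keratin was called between induced and native budding organoids. By limma 0 of 26 keratins tested were called between iISC and crypt, where 3.38% of all 13615 genes were called (2.07% higher and 1.31% lower), and 4 keratins had an unadjusted p under 0.05. iISC and crypt arrays share no slide, and the 95% intervals that follow leave slide out. Among simple keratins they were Krt8 0.24 (−0.01 to 0.48), Krt18 0.23 (−0.16 to 0.62), Krt19 0.22 (−0.21 to 0.65), Krt23 0.27 (−0.42 to 0.97) and Krt7 0.48 (−0.07 to 1.02). Krt20 had a wider interval, at 1.14 (−0.10 to 2.39), and its iISC and crypt arrays did not overlap. With slide as a term the difference in Krt20 was −0.24 ± 0.92 (adjusted p = 0.945), those in the other 5 simple keratins were 0.14 to 0.79, and no keratin was called, where 36 of 13615 genes were. The 4 keratins under the unadjusted limit were Krt84 (2.57 ± 0.82, adjusted p = 0.105) and Krt35 (1.77 ± 0.51, adjusted p = 0.0787), and, with negative differences, Krt31 (−2.57 ± 0.98) and Krt2 (−0.62 ± 0.25).
The iISC arrays differed among themselves in stratified keratins. Krt5 read −4.06, −4.00 and −1.40 in iISC against −4.32, −4.22 and −4.20 in crypt, so that iISC 3 stood out. Krt4 read −6.67, −3.47 and −2.81, and Krt78 −6.31, −3.09 and −2.70, lowest in iISC 1 in both. Without iISC 1, 3 keratins were called (Krt79 and Krt84 higher, Krt31 lower), where 443 of 13658 genes were.

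Of 33 keratins tested between iFIPC and FI, 12 were called, all higher in iFIPC, where 10.8% of all 14390 genes were called, 5.7% higher and 5.07% lower. The calls comprised 7 of 17 stratified keratins tested, 3 of 9 hair and nail keratins, and 2 of 6 simple keratins. iFIPC and FI arrays share no slide, and with slide as a term, which links them only through the crypt arrays, none of the 12 was called although all kept their sign. That fit called 0.862% of all genes. Of the 33, 7 (Krt6a, Krt6b, Krt12, Krt33a, Krt79, Krt84 and Krt222) passed the filter through iFIPC alone and 4 (Krt2, Krt31, Krt32 and Krt75) through FI alone. Of those 7, 5 were called, and of those 4 none.
Krt5, the basal type II chain, read 2.70, −0.37 and 7.09 in iFIPC against −3.74, −3.65 and −4.25 in FI. The 3 iFIPC arrays lay above all 15 other arrays, and iFIPC 3 was the highest. The difference was 7.03 ± 1.50 (adjusted p = 0.0104). It was 5.05 ± 0.96 (adjusted p = 0.0126) without iFIPC 3 and 8.68 ± 2.09 (adjusted p = 0.109) with slide as a term.
Its type I partner Krt14 read −2.29, −2.93 and 5.81 in iFIPC against −3.94, −4.44 and −4.45 in FI. The groups did not overlap, but the difference of 4.48 ± 1.81 was not called (adjusted p = 0.0917). Without iFIPC 3 it was 1.67 ± 0.25 (adjusted p = 0.0051) and was called.

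Krt6a, a stress keratin of stratified epithelium, read −1.65, −1.25 and 4.33 in iFIPC against −6.39, −7.49 and −6.46 in FI, where 2 arrays measured it. The groups did not overlap, and the difference was 7.26 ± 1.27 (adjusted p = 0.00488). Krt6b read −3.08, −3.16 and 2.95, and as no FI array measured it iFIPC was at least 59.1-fold higher (adjusted p = 0.004). Without iFIPC 3 the differences were 5.33 ± 0.37 (adjusted p = 0.000112) for Krt6a and 6.08 ± 0.45 (adjusted p = 0.000143) for Krt6b.
The type I stress keratins Krt16 and Krt17 were far higher in iFIPC 3 than on any other array. Krt16 read −1.62, −1.80 and 6.03, against −1.98, −2.70 and −2.81 in FI, and was not called (adjusted p = 0.158). Krt17 read −2.20, −2.74 and 2.34, against −3.19, −3.21 and −3.10, and was not called (adjusted p = 0.125).
Krt15 read −0.73, 1.35 and 2.47 in iFIPC and −2.23, −2.62 and −0.80 in FI. It was higher by 2.91 ± 0.86 (adjusted p = 0.0339) and lost its call without iFIPC 3 (2.19, adjusted p = 0.107), iFIPC 2 (2.76), FI 1 (2.74) or FI 2 (2.54). Krt79, a keratin of the hair follicle duct, read −1.36, −2.53 and −1.99 against −6.23, −7.77 and −8.91 in FI, higher by 5.68 ± 0.81 (adjusted p = 0.00216). Of these FI values 1 was above background, that of FI 1, so the size of the difference rests partly on values that are only bounds.
Krt80 was higher by 2.56 ± 0.52 and Krt13 by 1.27 ± 0.29. Krt4, the partner of Krt13, read −1.38, 1.12 and −2.61 against −2.30, −3.99 and −6.28 in FI, and these overlapped and were not called (3.23 ± 1.33, adjusted p = 0.0956). Krt78 read −3.81, −2.69 and 0.38 and was not called (adjusted p = 0.0549).

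**Figure D3:**
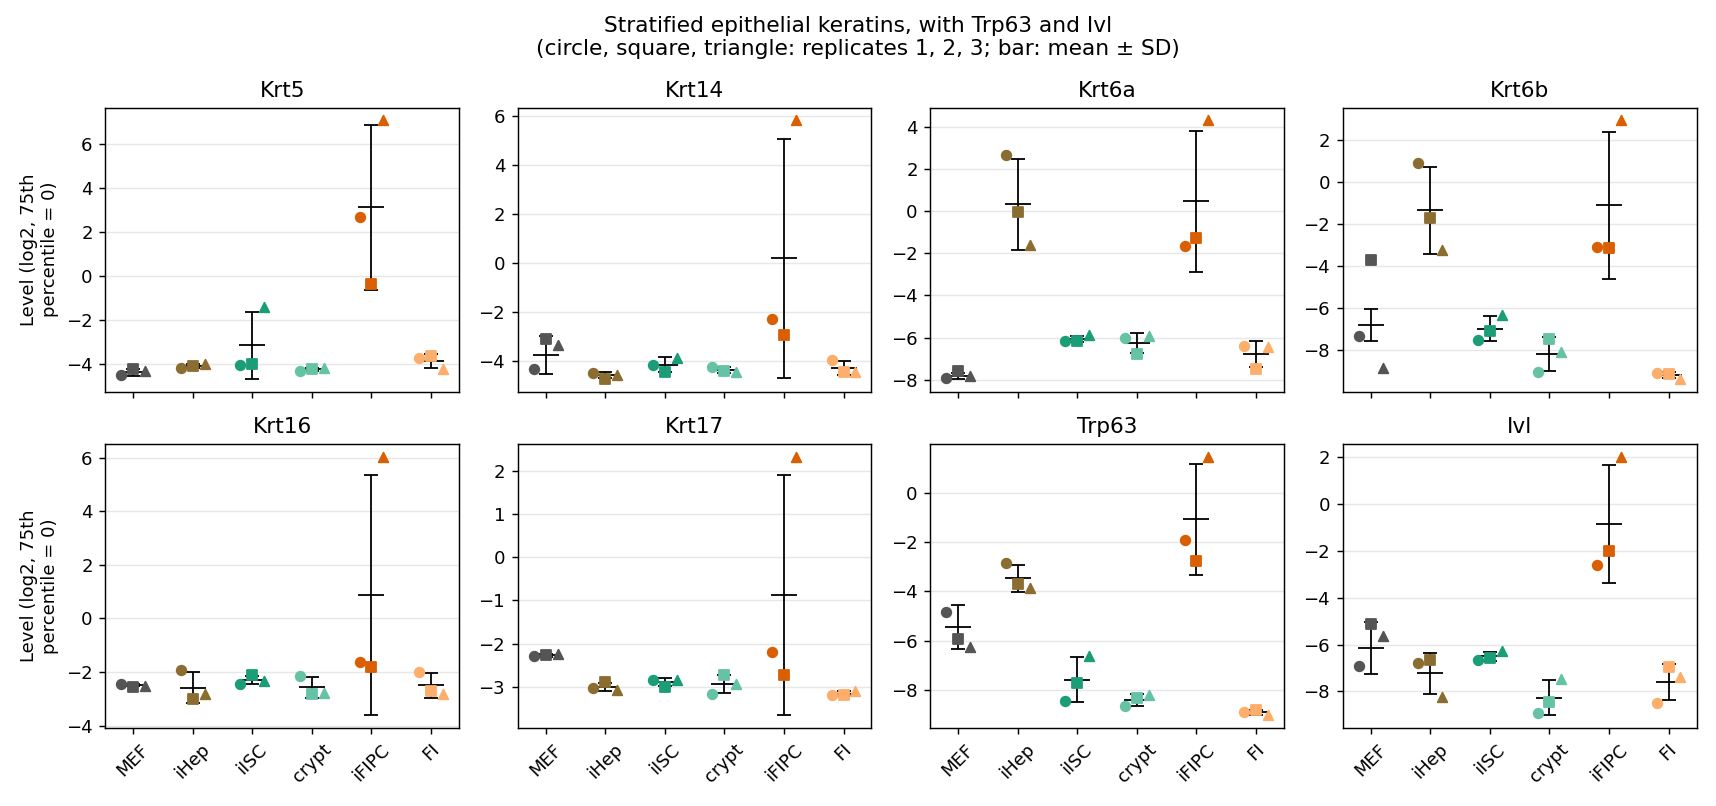
Levels of 6 stratified keratins and of Trp63 and Ivl (vertical axis, log2 with the 75th percentile of the array at 0) in the 6 groups, each array as a point whose shape is its replicate number, with the group mean ± SD as a bar. The triangle of iFIPC 3 is the highest point in every panel, and all iFIPC points lie above all FI points.

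Hair and nail keratins called higher in iFIPC than FI were Krt84 (4.85 ± 0.82), Krt33a (at least 5.29-fold) and Krt36 (2.82 ± 0.57). Krt84 read −1.10, −0.45 and −1.61 in iFIPC and Krt36 −3.58, −2.54 and −3.41. For these genes iFIPC 2, not iFIPC 3, was the highest array. Both probes of Krt36 were highest on the iFIPC arrays. Normexp correction ended the calls for Krt33a and Krt80.
Among simple keratins Krt19 (1.07 ± 0.19, adjusted p = 0.00547) and Krt20 (1.83 ± 0.56, adjusted p = 0.0398) were called. Krt19 was under the fold minimum without FI 3 (0.91). Krt20 lost its call without iFIPC 2 (1.51), iFIPC 3 (1.72), FI 1 (1.83) or FI 2 (1.30), and with slide as a term its difference was 0.20. Krt8 (0.60 ± 0.11, adjusted p = 0.00645) and Krt7 (0.90 ± 0.25, adjusted p = 0.0263) differed by less than the fold minimum, and Krt18 by 0.02 ± 0.18 and Krt23 by 0.72 ± 0.31 without passing the test.

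Of 24 other genes of stratified epithelium on the array 15 were tested, and 8 of these were higher in iFIPC than FI and none lower, where 5.7% and 5.07% of all genes were. All 15 were above background on every iFIPC array and 12 on every FI array. The rest, Trp63 among them, passed the filter through iFIPC alone, which favours a higher call. Trp63, the p63 factor of basal cells, read −1.91, −2.78 and 1.47 in iFIPC, was not above background on any iISC, crypt or FI array, and was at least 60.2-fold higher than in FI (adjusted p = 0.000836). In iHep it read −2.84, −3.70 and −3.85. Ivl (involucrin, a cornified envelope protein) read −2.63, −2.02 and 2.00 and was at least 68.8-fold higher than in FI. Sprr1a, another envelope protein, was higher by 4.73 ± 0.75 and Anxa8, an annexin, by 5.16 ± 1.17. Without iFIPC 3 the fitted differences were 6.56 ± 0.47 (adjusted p = 0.000123) for Trp63, against 7.84 with it, and 5.28 ± 0.50 (adjusted p = 0.00055) for Ivl, against 6.72. Krtdap, Sprr1b and Calml3, picked after their values were seen, were above background on 1 array of the 18, iFIPC 3, while the desmosomal cadherins Dsc3 and Dsg1a were on none.
The number of listed genes above background was 16, 16 and 21 on iFIPC 1, 2 and 3, and 14, 13 and 12 on FI 1, 2 and 3. On iHep 1, 2 and 3 it was 11, 13 and 14. The summed linear signal of the list, in units of the 75th percentile, was 305, 273 and 498 on the iFIPC arrays, highest on iFIPC 3, and 177 to 208 in FI. In iHep this sum was 478, 251 and 442, so a high sum was not particular to iFIPC. Stomach epithelium markers also gave more signal in iFIPC than FI, with 8 of 11 above background on every iFIPC array and 7 of 11 on every FI array, 3 of 9 tested called higher (Gkn2, Tff1 and Muc5ac) and 1 lower (Atp4a), and a summed signal of 331, 178 and 41.3 on iFIPC 1, 2 and 3, lowest on iFIPC 3, against 1.01 to 4.24 in FI and 105 to 418 in iHep. Of urothelium markers 2 of 5 were called higher, Upk1b (4.06 ± 0.98) and Upk2 (at least 4.95-fold), with summed signals of 1.18 to 6.96 in iFIPC and 0.676 to 1.21 in FI. Of mesothelium markers 2 of 6 were called higher, Upk1b again and Muc16 (2.44 ± 0.62), with sums of 64 to 147 and 18.9 to 63.5. The fibroblast list summed to 3.85 to 6.58 in iFIPC and 4.34 to 5.92 in FI, against 969 to 1058 in MEF, with 7 of 12 markers above background on every iFIPC array and 3 of 12 on every FI array. Of 7 fibroblast markers tested, 2 were called higher in iFIPC than FI and none lower. Their median difference was 3.41, against −0.08 for all genes. In each list, genes that passed the filter through iFIPC alone were likewise favoured for a higher call. The part of these lists in the keratin differences was not tested.

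Of 31 keratins tested between iISC and iFIPC 8 were called, all lower in iISC and 5 of them among the 15 stratified keratins tested, where 8.04% of all genes were called, 3.21% higher and 4.82% lower. They were Krt6a (−6.54 ± 1.27, adjusted p = 0.0104), Krt5 (−6.30 ± 1.50, adjusted p = 0.0237), Krt79 (−4.23 ± 0.81), Krt36 (−3.58 ± 0.57, above background on 1 iISC array), Krt6b (at least 32.5-fold lower), Krt80 (at least 4.88-fold lower), Krt33a (at least 2.91-fold lower) and Krt7 (−1.02 ± 0.25, adjusted p = 0.0248). Krt6a and Krt79 were each above background on 2 iISC arrays. Of the 31 tested, 9 passed the filter through iFIPC alone and 2 (Krt32 and Krt35) through iISC alone. Of those 9, 6 were called, each in the direction that the filter favours, and of those 2 none. Without iFIPC 3 the differences were −4.62 ± 0.37 (adjusted p = 0.000406) for Krt6a, −4.32 ± 0.96 (adjusted p = 0.0272) for Krt5 and −3.86 ± 0.45 (adjusted p = 0.00216) for Krt6b. The simple keratins Krt8, Krt18, Krt19, Krt20 and Krt23 differed by 0.07, −0.03, −0.21, 0.31 and −0.45 and were not called. Krt14 read −4.14, −4.45 and −3.85 in iISC, below all iFIPC arrays, and was not called (−4.34 ± 1.81, adjusted p = 0.136), but it was without iFIPC 3 (−1.54). Of the stratified epithelium list 7 of 15 tested genes were lower in iISC and none higher, where 4.82% and 3.21% of all genes were, Trp63 by at least 33.1-fold. All 15 were above background on every iFIPC array and 10 on every iISC array, so the rest passed the filter through iFIPC alone, which favours a lower call in iISC.
The count of keratins fell to 4 without iISC 1 or iISC 2, each of which ended the calls for Krt5 (−5.84 and −5.87), Krt6b (−5.62 and −5.82) and Krt7 (−0.91 and −0.96), and to 3 when only these groups were fitted. Calls among all genes also fell, from 1108 of 13787 to 968 of 13825, 767 of 13982 and 643 of 13787 in that order. With normexp correction Krt6b, Krt33a and Krt80 were not called. Krt80 was lost without iISC 1 (−2.18), Krt33a without iISC 2 (−3.04) or iISC 3 (−2.86), Krt5 without iFIPC 1 (−6.52) and Krt7 without iFIPC 2 (−1.06) or iFIPC 3 (−0.83). With slide as a term, 2 were called (Krt33a and Krt36), none of them stratified, where 2.18% of all genes were. That fit rests on slide 5, which holds iISC 1 to 3 and iFIPC 2, so that 1 array stands for iFIPC and its spread is taken to be that of the other groups. Krt5 then differed by −2.78 ± 1.58 (adjusted p = 0.429) and Krt6a by −4.82 ± 1.81 (adjusted p = 0.243).

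Between the native organoids crypt and FI, 0 of 28 keratins were called by limma, where 9.12% of all genes were called (3.17% higher and 5.95% lower), and 4 had an unadjusted p under 0.05. Krt8 (0.44 ± 0.11, adjusted p = 0.0279) and Krt19 (0.64 ± 0.19, adjusted p = 0.0493) were higher in crypt by less than the fold minimum. Krt7 differed by −0.60 ± 0.25 (adjusted p = 0.123), and Krt36, which crypt arrays did not measure, by at least 1.58-fold (adjusted p = 0.151). Krt5 and Krt14 differed by −0.37 and −0.07.
The difference between adult and fetal type was then compared between induced (iISC minus iFIPC) and native organoids (crypt minus FI). Of 34 keratins 1 was called, where 5.27% of all genes were (3.26% higher and 2.01% lower): Krt6a, whose change was −7.08 ± 1.80 in the induced relative to the native pair (adjusted p = 0.0453). Krt6a read −6.14, −6.16 and −5.90 in iISC and −6.04, −6.80 and −5.91 in crypt, so that iFIPC was the only organoid group that stood high. Krt6a passed the filter through iFIPC alone, with 2 arrays above background in each of iISC, crypt and FI. With no filter on dim probes it was not called (adjusted p = 0.067). Krt6b (−6.89 ± 1.91, adjusted p = 0.0561), Krt5 (−5.93 ± 2.13, adjusted p = 0.108) and Krt79 (−3.39 ± 1.15, adjusted p = 0.0926) were not called. Without iFIPC 3 there were 4 calls (Krt6a, Krt6b, Krt14 and Krt34), where 576 of 14587 genes were called. The call for Krt6a was lost without any 1 of the iISC or FI samples, crypt 2 or crypt 3 (from −7.35 without crypt 2 to −6.72 without FI 2), with normexp correction (−4.55), and with slide as a term (−5.57, adjusted p = 0.419).

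**Figure D4:**
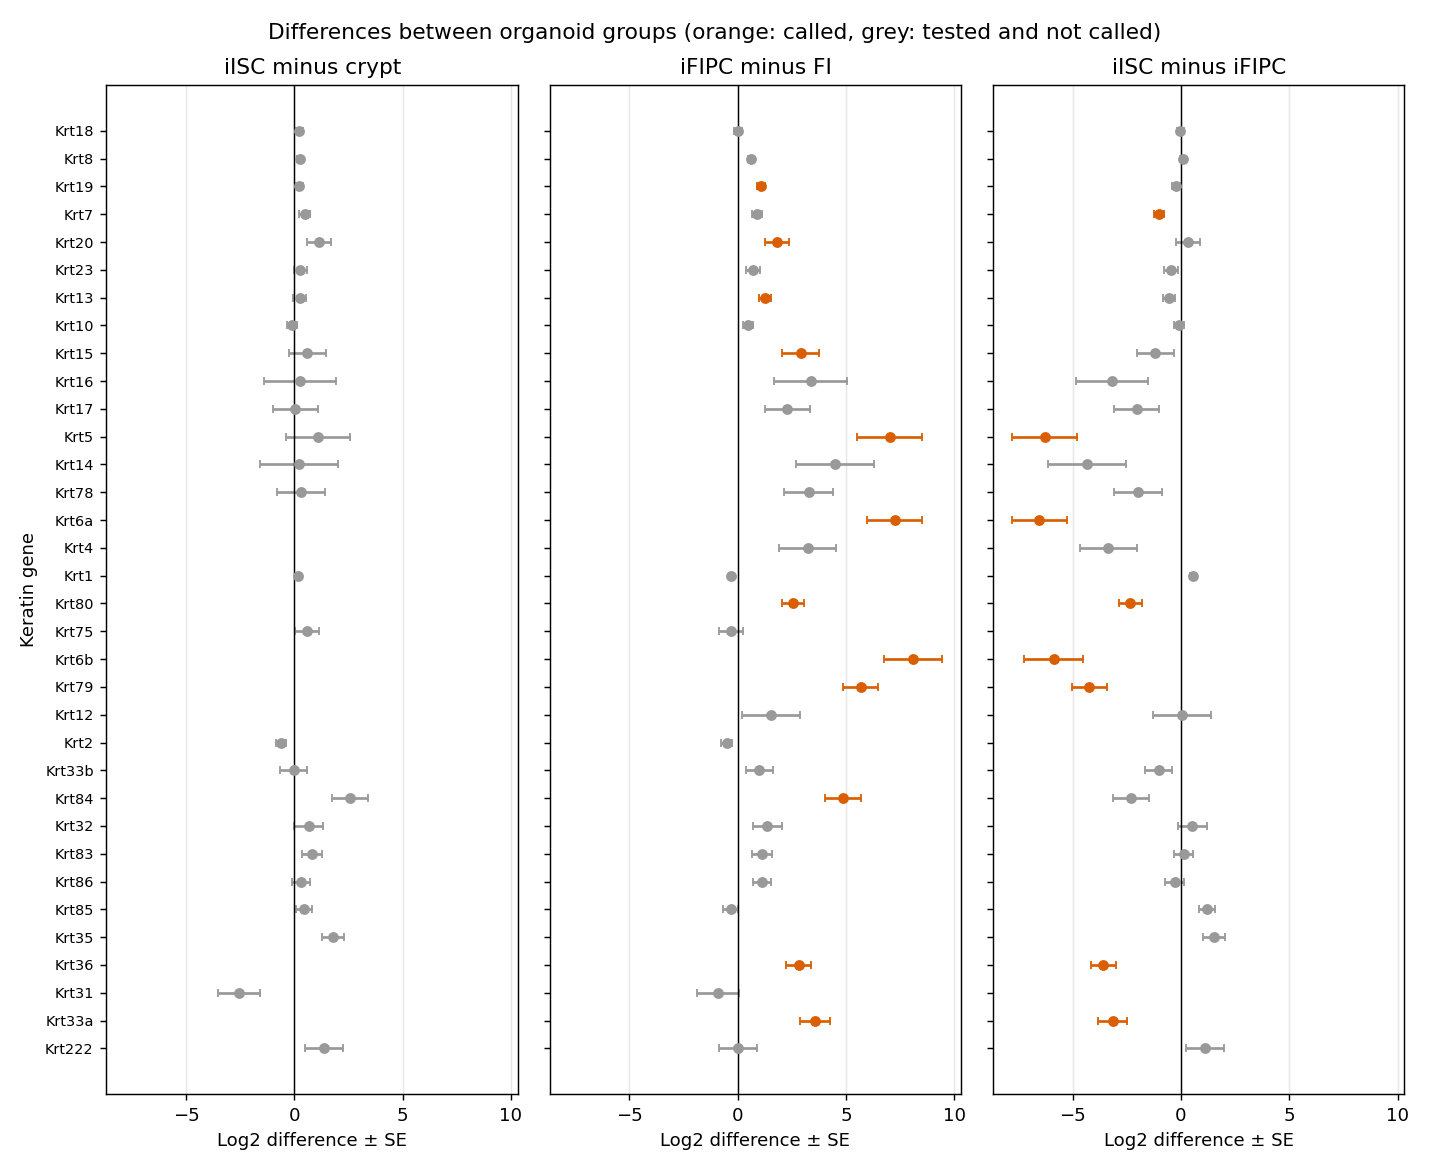
Log2 differences ± SE (horizontal axis) of each keratin tested (vertical axis) between iISC and crypt, iFIPC and FI, and iISC and iFIPC, with called genes in orange. No gene is orange for iISC minus crypt, 12 are to the right of 0 for iFIPC minus FI, and 8 are to the left of 0 for iISC minus iFIPC.

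Of 18 genes tested whose proteins link or anchor keratin filaments, 11 were higher and 1 lower in iHep than MEF, where 11.9% and 15.9% of all genes were. Of 19 tested, 16 were higher and 2 lower in iFIPC, where 20.2% and 23.3% of all genes were, and 14 higher and 2 lower in iISC, where 23.1% and 25.5% were, each against MEF. Of these linker genes 14 were above background on every MEF array, 17 on every iHep, 19 on every iFIPC and 18 on every iISC array. Those that passed the filter outside MEF alone were favoured for a higher call. Dsp (desmoplakin, which ties keratin to the desmosome) was higher by 6.02 ± 0.52 in iHep and 8.16 ± 0.53 in iISC. Dsg2, the desmosomal cadherin of simple epithelia, was higher by at least 68.6-fold and at least 463-fold, and the plakophilin Pkp1 by 7.92 and 9.62. Between iFIPC and FI 3 were higher and 1 lower of 19, where 5.7% and 5.07% of all genes were. All 19 were above background on every iFIPC array and 18 on every FI array. Col17a1, a hemidesmosome collagen of basal cells, read −0.84, −4.01 and 3.76 in iFIPC and was higher than in FI by 6.56 ± 1.69, and by 4.50 ± 1.25 (adjusted p = 0.0423) without iFIPC 3.
Vim (vimentin) had the opposite order, at 7.73, 7.94 and 7.97 in MEF, 5.76, 5.69 and 5.54 in iHep, and −0.76 to −0.08 over the iISC and crypt arrays. It read 1.53, 2.56 and 1.02 in iFIPC and −1.09, −0.66 and 0.68 in FI, higher in iFIPC by 2.06 ± 0.46 (adjusted p = 0.0126). Des (desmin, of muscle cells) was lower than in MEF, with a difference of −5.30 ± 0.44 in iHep and at least 48.2-fold in iISC.
Among 25 regulators on the array, 14 of 22 tested were higher and 1 lower in iHep than MEF, and in iISC 16 of 23 were higher and 5 lower (the shares of all genes are those given for the linker genes). Of the 25, 11 were above background on every MEF array, 22 on every iHep array and 18 on every iISC array. Many thus passed the filter through iHep or iISC alone, which favours a higher call. Cdx2, the intestinal caudal factor, was at least 632-fold higher in iHep and at least 2944-fold in iISC, and Hnf4a, a factor of liver and gut, at least 53.3-fold and 978-fold. Snai2, which binds the E-box CACCTG printed above, read 3.80, 4.26 and 4.28 in MEF and was at least 1142-fold lower in iISC. In iHep, where its values were looked at afterwards, it read 1.78, 2.14 and 1.27, below every MEF array. It was not called (−2.30 ± 1.72, adjusted p = 0.298), with an SE that uses the spread over all groups and not of iHep and MEF alone. Between iFIPC and FI 4 of 21 regulators were higher and 3 lower, against 5.7% and 5.07% of all genes, with Twist1, a mesenchymal factor, at least 20.3-fold higher and Cdx2 different by −2.08 ± 0.22. All 21 were above background on every iFIPC array and 18 on every FI array.

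Group means ± SD (n = 2 for MEF, n = 3 otherwise) show how the keratins not yet given in every group varied, and they include arrays not above background, where the level is only a bound. Among those of stratified epithelium Krt4 averaged −8.25 ± 0.52 in MEF, −3.66 ± 2.46 in iHep, −4.32 ± 2.07 in iISC, −6.96 ± 0.97 in crypt, −0.96 ± 1.90 in iFIPC and −4.19 ± 2.00 in FI. Krt15 averaged −4.01 ± 0.91 in MEF, −3.05 ± 1.17 in iHep, −0.15 ± 1.31 in iISC, −0.75 ± 0.28 in crypt, 1.03 ± 1.62 in iFIPC and −1.88 ± 0.96 in FI. Krt16 averaged −2.48 ± 0.05 in MEF, −2.58 ± 0.57 in iHep, −2.30 ± 0.16 in iISC, −2.57 ± 0.39 in crypt, 0.87 ± 4.47 in iFIPC and −2.50 ± 0.45 in FI. The mean was highest in iFIPC for each of these 3.
Krt17 averaged −2.28 ± 0.03 in MEF, −3.00 ± 0.10 in iHep, −2.90 ± 0.10 in iISC, −2.95 ± 0.21 in crypt, −0.87 ± 2.79 in iFIPC and −3.17 ± 0.06 in FI. Krt78 averaged −8.13 ± 0.83 in MEF, −1.98 ± 1.22 in iHep, −4.03 ± 1.98 in iISC, −4.35 ± 0.26 in crypt, −2.04 ± 2.17 in iFIPC and −5.31 ± 0.55 in FI. Krt79 averaged −8.13 ± 0.23 in MEF, −3.55 ± 0.72 in iHep, −6.19 ± 1.57 in iISC, −8.47 ± 0.43 in crypt, −1.96 ± 0.59 in iFIPC and −7.64 ± 1.34 in FI. Krt17 and Krt79 had their highest mean in iFIPC, and Krt78 in iHep, just above iFIPC.
Krt80 averaged −5.25 ± 0.57 in MEF, −2.70 ± 0.89 in iHep, −6.15 ± 0.29 in iISC, −6.91 ± 0.64 in crypt, −3.82 ± 1.18 in iFIPC and −6.38 ± 0.21 in FI. Krt13 averaged −2.84 ± 0.18 in MEF, 2.49 ± 0.36 in iHep, 2.40 ± 0.54 in iISC, 2.15 ± 0.27 in crypt, 2.95 ± 0.34 in iFIPC and 1.69 ± 0.32 in FI. Krt80 had its highest mean in iHep, and Krt13 in iFIPC.
Among hair and nail keratins Krt32 averaged −7.47 ± 0.30 in MEF, −6.30 ± 0.25 in iHep, −3.77 ± 1.18 in iISC, −4.42 ± 0.24 in crypt, −4.29 ± 1.20 in iFIPC and −5.67 ± 0.70 in FI. Krt33a averaged −8.38 ± 0.72 in MEF, −6.40 ± 1.34 in iHep, −7.74 ± 0.73 in iISC, −8.44 ± 0.67 in crypt, −4.58 ± 1.23 in iFIPC and −8.14 ± 0.92 in FI. Krt33b averaged −3.49 ± 0.10 in MEF, −3.69 ± 0.13 in iHep, −2.97 ± 0.17 in iISC, −2.94 ± 0.08 in crypt, −1.95 ± 1.70 in iFIPC and −2.95 ± 0.04 in FI. The mean was highest in iFIPC for Krt33a and Krt33b and in iISC for Krt32.
Krt35 averaged −7.02 ± 0.13 in MEF, −6.59 ± 0.31 in iHep, −4.22 ± 0.59 in iISC, −5.99 ± 0.39 in crypt, −5.75 ± 0.86 in iFIPC and −6.63 ± 0.79 in FI. Krt36 averaged −7.73 ± 0.20 in MEF, −6.52 ± 1.86 in iHep, −6.76 ± 0.96 in iISC, −7.25 ± 0.91 in crypt, −3.18 ± 0.56 in iFIPC and −5.99 ± 0.50 in FI. Krt83 averaged −8.00 ± 0.14 in MEF, −5.82 ± 1.87 in iHep, −4.01 ± 0.59 in iISC, −4.83 ± 0.53 in crypt, −4.13 ± 0.54 in iFIPC and −5.27 ± 0.75 in FI. All 3 had their lowest mean in MEF.
Krt84 averaged −5.44 ± 0.11 in MEF, −3.28 ± 0.22 in iHep, −3.35 ± 1.65 in iISC, −5.92 ± 0.40 in crypt, −1.05 ± 0.58 in iFIPC and −5.90 ± 1.31 in FI. Krt86 averaged −8.37 ± 0.80 in MEF, −5.15 ± 1.18 in iHep, −4.54 ± 0.19 in iISC, −4.83 ± 0.18 in crypt, −4.24 ± 0.67 in iFIPC and −5.37 ± 0.85 in FI. Krt222 averaged −8.31 ± 0.62 in MEF, −5.90 ± 0.51 in iHep, −4.87 ± 0.63 in iISC, −6.23 ± 1.26 in crypt, −5.99 ± 0.34 in iFIPC and −6.01 ± 1.88 in FI. The mean was highest in iFIPC for Krt84 and Krt86 and in iISC for Krt222.

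The remaining keratins were flat, sparse or read by probes that disagree. Krt10, the type I keratin of upper epidermis, lay at −0.69 to 0.43 over all 18 arrays, while its second probe averaged −5.93 and was above background on 13. Krt1, its type II partner, was read by a probe at chr15:101678904-101678963 (mm9) whose strand is opposite to that of its second probe, and lay at −5.82 to −4.53. The second probe was above background on 3 arrays only, so no level is claimed for Krt1.
Krt13 was read by a probe at chr11:99982471-99982530 (mm9), at −3.05 to −2.72 in MEF and 1.32 to 3.34 elsewhere. Its other probe, at chr11:99980710-99980948, was above background on 3 arrays, all of iFIPC, so the 2 probes disagree outside iFIPC. Within iFIPC the other probe read −5.67, −4.13 and −0.61 and the used probe 2.70, 2.82 and 3.34. The order was the same there, but the sizes of the differences between arrays disagreed. The 2 probes of Krt8 and those of Krt7 followed each other across arrays. The second probe of Krt33b was above background on no array. Krt75, of the follicle companion layer, was above background on 16 arrays, at −6.38 to −3.48 over all, and was called in no comparison. Krt2 and Krt31 were above background on every array of crypt and FI only. Krt2 averaged −7.81 ± 0.24 in MEF, −7.75 ± 0.31 in iHep, −6.38 ± 0.48 in iISC, −5.76 ± 0.34 in crypt, −6.29 ± 0.22 in iFIPC and −5.79 ± 0.19 in FI. Krt31 averaged −8.51 ± 0.69 in MEF, −8.04 ± 0.48 in iHep, −6.95 ± 1.97 in iISC, −4.38 ± 0.74 in crypt, −6.71 ± 0.55 in iFIPC and −5.79 ± 1.52 in FI. Krt12, of cornea, was above background on every array of iFIPC only and averaged −7.93 ± 0.04 in MEF, −5.27 ± 0.71 in iHep, −6.01 ± 1.67 in iISC, −6.31 ± 2.31 in crypt, −6.04 ± 0.45 in iFIPC and −7.57 ± 2.20 in FI.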

How the data were processed

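Total RNA of 18 samples was read on one-colour Agilent mouse arrays. The deposited scanner files give spot intensity on a linear scale after background subtraction by Feature Extraction, per the file headers (version 9.5.1.1 for MEF and iHep, 10.7.1.1 for organoids), and flags for spots well above background. The submitters' processing notes name version 9.5.1.1 only. The authors' deposited series matrix holds intensity on a linear scale, and how it was normalized is not given in the sources used here. Its columns share a median of 59.1 and correlate at r of at least 0.9999 with the quantile-normalized scanner signal, so its scale and direction were settled, and it served as an alternative.

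Levels are log2 of the deposited processed signal minus the 75th percentile of each array. Control spots and outlier spots were left out, spots of a probe were averaged, and the brightest probe by mean over samples stood for each gene. Of 41109 probes the RefSeq table named 25210 by accession, 5767 by symbol and 1735 by synonym. Keratin probes kept the name in the files, and 8395 probes stayed without a name and were left out of the gene tests. MEF 2 and MEF 3 differed with an SD of 0.119 log2 units, under the 0.170 of single-spot noise, while 17 other pairs lay between 0.238 and 0.683. They were averaged. The number of arrays limits the precision.

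Comparisons used limma 3.58.1 in R 4.3.3 (lmFit and eBayes). Those with MEF or iHep were fitted on 17 samples and those among organoids on 12, and a gene was tested where all arrays of 1 or more of the groups compared read its probe above background. In each fit all groups share 1 estimate of spread per gene, so an SE can carry spread from groups outside the comparison. On simulated data, limma recovered 88% of log2 changes of 2 and 89% of changes of 4 for iHep against MEF over 14417 genes, and 78% and 95% for iISC against crypt over 13615 genes.

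The alternatives were quantile scaling, normexp background correction with an offset of 50, the series matrix, no filter on dim probes, other rules for choosing probes, only the groups compared, 18 separate arrays, each sample left out, the replicate number as a block, and slide as a term or random block. The values within slides 1, 3 and 5 were added after the data were seen. The members and lists were chosen with earlier results of these data known. The text names every keratin above background on every array of a group, every called keratin, the anchors Krt7, Krt8, Krt18, Krt19, Krt20, Krt23, Krt5 and Krt14, and of each list up to 4 called members with the largest change per comparison.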

Additional observations from a re-analysis of the deposited data

Results flagged for a closer look

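The difference between adult-type and fetal-type organoids in Krt6a was larger in the induced than in the native pair by a test of the difference itself, at −7.08 log2 units (limma adjusted p = 0.0453). All 3 iFIPC arrays lay above all 9 other organoid arrays for this gene, at −1.65, −1.25 and 4.33. Krt6a entered the test through iFIPC alone, the group where it is high, and with no filter on dim probes the limma adjusted p was 0.067. With the replicate number as a block the adjusted p was 0.0517, and with slide as a term the difference was −5.57 (adjusted p = 0.419).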

How the results depend on the processing

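Of 85 keratin calls, quantile scaling and the series matrix each kept 84, no filter on dim probes 81, the mean of all probes 83, and the probe brightest in any group 85. Normexp kept 61 and turned 1, Krt222 in iFIPC against MEF, to −0.10. It also moved the number of keratins called to 10 for iISC against MEF and 2 for the stage change of induced against native organoids. Among all genes it called 6047 of 14801 and 665 of 14529 there. Fitting only the groups compared kept 70 of 84 calls and gave 3 for iISC against iFIPC, where it ended the calls for Krt33a, Krt5, Krt6a, Krt6b, Krt7 and Krt80. With slide as a term 16 of 36 calls were kept, and the counts were 0 for iFIPC against FI, 2 for iISC against iFIPC and 0 for the stage change. The values within slide 5 (a count of 2 for iISC against iFIPC) and within slide 1 (14 of 15 calls kept for iHep against MEF) equal those with slide as a term, since 1 sample stands for iFIPC or MEF there, and are no further evidence. A random slide block kept 49 of 49 calls. With no filter the stage change had 0 calls. Leaving out 1 sample at a time gave 0 to 3 calls for iISC against crypt, 4 to 9 for iISC against iFIPC and 0 to 4 for the stage change. Calls among all genes then ranged from 155 to 674, from 767 to 1015 and from 319 to 1601 in the same order. The causes of these moves were not tested.

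The labels do not say whether the replicate numbers pair the samples, and the main fits did not pair them. Deviations of same-numbered samples from their group means correlated at r from −0.33 to 0.33, both extremes in crypt against FI. With so few samples per group these values cannot settle whether the numbers pair them. With the replicate block 81 of 85 calls were kept, and the stage change had 0 calls, with Krt6a at −7.08 (adjusted p = 0.0517). The block also ended the calls for Krt84 in iHep (2.21) and iISC (2.14) and Krt33b in iFIPC (1.36), each against MEF. Levels near background, as of most hair and nail keratins, are bounds rather than measurements.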
